A study of Homo sapiens with 4 samples.

Results

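The genes described here are the MAGE genes and other cancer-testis antigen genes in the RNA-seq of HeyC2 and SKOV3, which are human ovarian cancer lines. They were chosen by name: every symbol that starts with MAGEA to MAGEF, GAGE, PAGE, XAGE, BAGE, SSX, CTAG, CT45 or CT47, and PRAME, DAZL, DDX4, SYCP3, TDRD1, TEX101 and BRDT. This rule found 128 of 26506 symbols. It goes by name and reads no measured value, but it was set with earlier results of these data known. Of these, 18 (the MAGED, MAGEE, MAGEF and CTAGE genes and SSX2IP) were set apart by name. Not all of the 18 were transcribed here: MAGEE2 and CTAGE1, for example, were listed at 0 in every library. The other 110 carry a cancer-testis or germline name in the narrow sense, the antisense RNA MAGEA8-AS1 among them. This split goes by name and does not sort the genes by where they are expressed. Each cell line, labelled Wild-type or TET1 overexpressed, was transfected with 3 μg of empty plasmid (control) or of pCMV6/TET1 (TET1-reprogrammed), in which a viral promoter drives TET1, and all 4 groups were kept in 400 μg/ml Geneticin. There was 1 library per group, so no difference below has a replicate check and no p-value is given. Whether a transfected line is 1 clone or a pool is not given in the sources used here.

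Cancer-testis antigens are proteins made in the germ cells of the testis, in many cases from clusters of near-identical genes on the X chromosome, and silent in most other tissues. Their promoters are methylated at CpG dinucleotides in somatic cells, and many are known to become active when that methylation is lost, which is why tumours express some of them and why they are studied as immune targets. TET1 oxidises 5-methylcytosine, the first step of active demethylation. Type I MAGE genes (MAGEA, MAGEB and MAGEC) follow the cancer-testis pattern, whereas type II genes (MAGED, MAGEE, MAGEF) are transcribed in many tissues. MAGE proteins of both types bind RING ubiquitin ligases. The comparisons ask which of the genes were silent, which were transcribed, and whether any came on with TET1.

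The sequences below are examples of promoters of these genes. PRAME was found at a high level and MAGEB2 at a low level, both in SKOV3 only. MAGEF1 was found in all 4 libraries, and MAGEC2 and BRDT were at or close to 0 throughout. Each sequence is the run of 250 bases before the annotated transcription start in RefSeq (GRCh38.p14). It was matched at a single place to GRCh37, which is the build of hg19, and is printed 5′ to 3′ on the gene's strand. Capitals mark CpG dinucleotides. The PRAME and BRDT stretches reach into the 5′ end of longer gene models.
PRAME (chr22:22901673-22901922, minus strand): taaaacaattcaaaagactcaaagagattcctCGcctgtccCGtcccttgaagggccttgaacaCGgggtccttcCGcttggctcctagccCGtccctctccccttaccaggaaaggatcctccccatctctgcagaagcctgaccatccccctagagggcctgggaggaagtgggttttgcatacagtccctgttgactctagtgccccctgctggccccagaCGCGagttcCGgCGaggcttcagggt
MAGEB2 (chrX:30233430-30233679, plus strand): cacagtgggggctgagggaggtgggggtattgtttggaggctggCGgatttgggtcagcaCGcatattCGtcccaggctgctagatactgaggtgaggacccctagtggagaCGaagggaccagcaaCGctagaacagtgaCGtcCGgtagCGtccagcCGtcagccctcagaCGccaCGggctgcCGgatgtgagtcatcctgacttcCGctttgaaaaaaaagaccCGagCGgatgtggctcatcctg
MAGEF1 (chr3:184429853-184430102, minus strand): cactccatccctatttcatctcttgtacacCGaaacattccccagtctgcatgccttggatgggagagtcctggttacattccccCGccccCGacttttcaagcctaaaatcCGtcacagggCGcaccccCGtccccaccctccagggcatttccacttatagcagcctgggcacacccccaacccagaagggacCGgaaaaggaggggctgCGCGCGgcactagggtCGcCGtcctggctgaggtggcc
MAGEC2 (chrX:141293077-141293326, minus strand): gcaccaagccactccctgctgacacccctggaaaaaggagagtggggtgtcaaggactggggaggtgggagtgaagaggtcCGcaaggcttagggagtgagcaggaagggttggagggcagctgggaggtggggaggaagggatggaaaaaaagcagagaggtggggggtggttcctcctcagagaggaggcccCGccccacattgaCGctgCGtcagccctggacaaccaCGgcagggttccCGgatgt
BRDT (chr1:92414678-92414927, plus strand): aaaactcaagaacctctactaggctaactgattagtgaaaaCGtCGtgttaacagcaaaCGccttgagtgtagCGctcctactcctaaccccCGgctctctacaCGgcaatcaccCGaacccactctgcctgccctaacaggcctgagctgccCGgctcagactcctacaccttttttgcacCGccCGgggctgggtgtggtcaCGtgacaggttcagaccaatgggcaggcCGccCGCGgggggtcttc
The printed stretches hold 9 CpGs for PRAME, 15 for MAGEB2, 12 for MAGEF1, 6 for MAGEC2 and 14 for BRDT. The silent BRDT promoter thus carried more CpGs than that of PRAME, and methylation itself was not measured in these files. These examples are not typical of all members. With the 50 bases after the start added, the printed MAGEB2, MAGEF1 and BRDT promoters hold 21 CpGs each. The upper quartile of the member windows was 17.

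Values are FPKM, fragment numbers scaled to transcript length and sequencing depth. The value steps show that each deposited TET1 library had been multiplied by 1 constant, which made GAPDH the same as in the control. This was inferred from the values. That constant, 3.23 for HeyC2 and 1.35 for SKOV3 (1.69 and 0.43 on the log2 scale), was divided out of all values here. Where 4 values of a gene follow each other, they are those of HeyC2 control, HeyC2 TET1, SKOV3 control and SKOV3 TET1, in this order. The depth was estimated at 6660000 to 7300000 fragments per library. For a member transcript of median length (1293 bases), 1 fragment was worth 0.120 to 0.136 FPKM, and a gene listed at 0 could have had up to 3 fragments, or 0.360 to 0.409 FPKM, by counting error alone. Of 84 cytosolic ribosomal protein genes, 1 or 2 were listed at 0 per library, and these were RPL10L and RPL3L, relatives restricted to testis and to muscle, while all others were above 0. TET1 itself was 0.20, 0.52, 0.43 and 1.80 FPKM, higher with the TET1 plasmid in both lines. Spearman's rho across genes, which are not independent replicates, was 0.960 within HeyC2, 0.949 within SKOV3 and 0.880 to 0.888 between the lines. Of 8 epithelial markers, 4, 5, 8 and 7 reached 1 FPKM in the 4 libraries. The keratins KRT8 and KRT18 were at least 192.85 FPKM in every library, whereas in HeyC2 CDH1 was 0 and EPCAM at most 0.38. Of 5 ovarian and Müllerian markers, 2, 2, 3 and 3 reached 1 FPKM. The lineage factor PAX8 was at least 74.59, whereas MUC16 was at or below 0.05 and WT1 at most 0.53. FOLR1 was at most 0.17 in HeyC2. The summed level of 4 leukocyte markers was 0.33 to 0.61 FPKM.

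Most of the genes were silent. Of the 128 members, 89 (69.5%) were listed at 0 in all 4 libraries, against 7947 (30.0%) of all symbols. A further 29 were above 0 somewhere but never reached 1 FPKM, and 10 reached 1 FPKM in at least 1 library. These 10 were MAGED1, MAGED2, MAGEE1, MAGEF1, MAGEB2, PRAME, CTAGE4, CTAGE5, CTAGE8 and SSX2IP. In these bulk samples, few cells with a transcript and little transcript in every cell cannot be told apart.

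In HeyC2, 116 members were listed at 0 in the control and 118 with TET1, and in SKOV3 99 were in the control and 107 with TET1. At or above 1 FPKM stood 5 members in each HeyC2 library and 9 in each SKOV3 library (3.91% and 7.03%), against 43.96% to 50.4% of all symbols. SKOV3 thus had more members at 1 FPKM than HeyC2, with and without TET1. Of the 117 members matched to the annotation, 97 lie on the X chromosome, and 78.4% to 96.9% of these were listed at 0 per library, whereas 41.5% to 49.6% of the 940 other symbols on X were. Among the 110 members in the narrow sense, no member reached 1 FPKM in HeyC2, 2 did in the SKOV3 control (PRAME and MAGEB2) and 1 did in SKOV3 TET1 (PRAME).

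**Figure D1:**
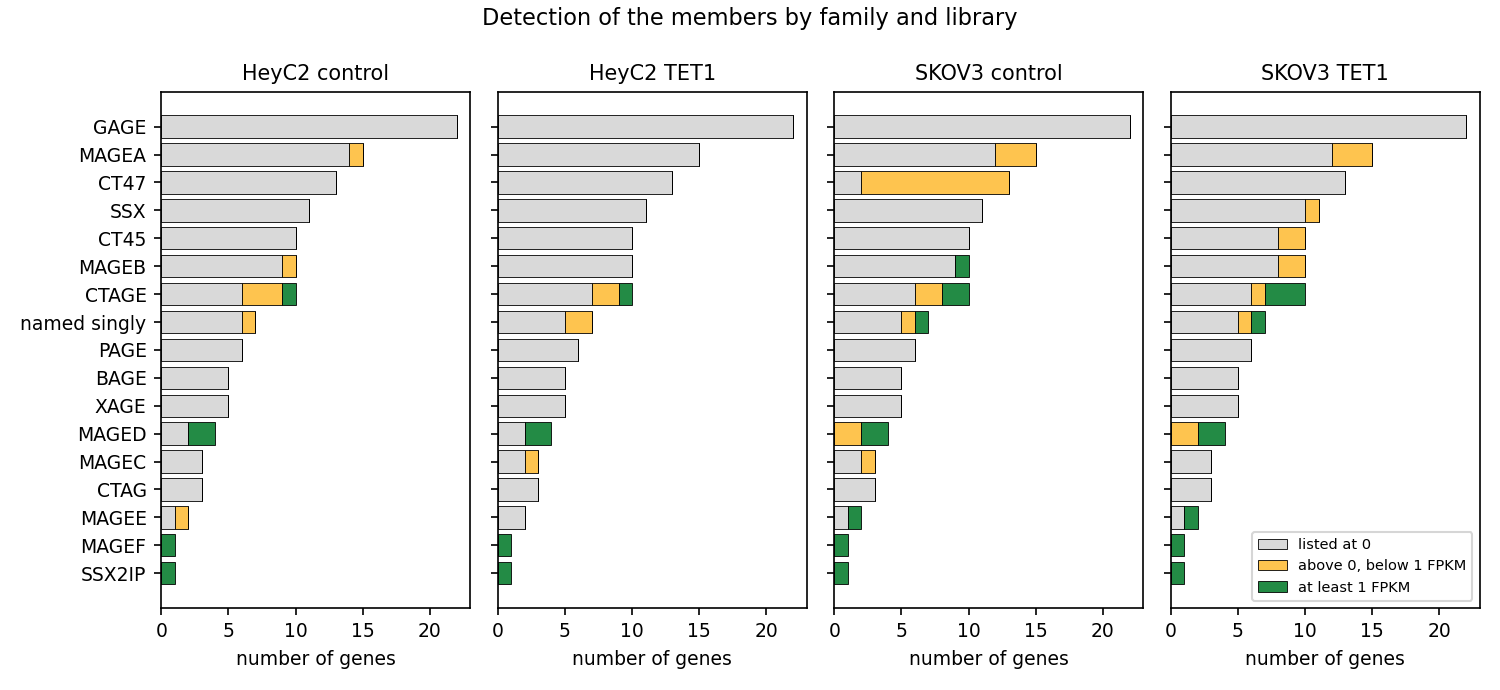
Number of members (x axis) in each gene family (y axis) that were listed at 0 (grey), above 0 and below 1 FPKM (yellow) or at least 1 FPKM (green), in 1 panel per library. The GAGE, PAGE, XAGE, BAGE and CTAG bars are grey in all 4 panels, and green appears only in MAGEB, MAGED, MAGEE, MAGEF, CTAGE, SSX2IP and, for PRAME, the genes named singly.

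Whole families were listed at 0 in every library. They were the 22 GAGE, 6 PAGE and 5 XAGE genes, which encode small acidic proteins, the 5 BAGE genes, and the 3 CTAG genes, which include the gene for the tumour antigen NY-ESO-1. Of the single genes, DAZL, a germ cell RNA-binding protein, SYCP3, a part of the synaptonemal complex of meiosis, TDRD1, of the piRNA pathway, and BRDT, a testis bromodomain protein, were also 0 in all 4 libraries. DDX4, the germ cell RNA helicase VASA, was 0.07 FPKM in SKOV3 TET1 and 0 elsewhere. TEX101, a surface protein of germ cells, was 0, 0.15, 0.10 and 0 FPKM. Neither gene was above 0 in both libraries of a line.

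The 29 members above 0 that never reached 1 FPKM were at most 0.33 FPKM, and 24 of them were above 0 in 1 library only. Together they rested on few fragments: an estimated 5.3, 7.1, 13.0 and 14.4 in the 4 libraries. Among the MAGEA genes, whose products are known antigens of melanoma and other tumours, MAGEA1 was 0, 0, 0.18 and 0.10 FPKM. MAGEA3, which binds the ligase TRIM28, was 0.19 in SKOV3 TET1 and 0 elsewhere. The 15 MAGEA genes together came to an estimated 2.0, 0, 5.9 and 3.8 fragments in the 4 libraries.

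Near-identical copies inflate such counts. Of 13 CT47 genes, 11 were listed at 0.02 FPKM each in the SKOV3 control and at 0 in the other 3 libraries, but these 11 values sum to an estimated 1.7 fragments. CT45A4 and CT45A6 were 0.27 each in SKOV3 TET1, an estimated 2.9 fragments together. RSEM divides a read that fits several copies among them. Of the 117 members with a transcript, 54 shared over 50% of their 100-base stretches with another member and 28 shared all of them, whereas 48 shared none, among them PRAME, MAGEB2, MAGED1, MAGED2, MAGEE1 and MAGEF1.

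No member was switched on by TET1. Switched on was set as below 0.1 FPKM in the control and at least 1 FPKM with TET1. In HeyC2 0 of 119 members below 0.1 did so, beside 89 of 12214 symbols (0.729%), and in SKOV3 0 of 114, beside 199 of 11219 (1.77%). Both shares are low, so with this many members 0 lies near them and is no trait of the members. TET1 itself was 0.52 FPKM in HeyC2 TET1, below the 1 FPKM set here, and 1.80 in SKOV3 TET1. In HeyC2, 2 members went from 0 to a value above 0 (MAGEC3 and TEX101, at most 0.15 FPKM) and 4 from above 0 to 0. In SKOV3, 8 went from 0 to above 0, none past 0.27 FPKM, and 16 went the other way, 11 of them the CT47 copies. Of the members at 0 in the control, these were 2 of 116 in HeyC2 and 8 of 99 in SKOV3. Among all symbols, 1172 of 11344 at 0 in the HeyC2 control and 1524 of 10357 in the SKOV3 control rose above 0. The reverse moves of all symbols numbered 760 and 732. The member moves rest on few fragments. With the CT47 copies counted as separate genes, the balance of directions cannot be set against that of all symbols. The limit that 3 fragments set depends on transcript length, and by the estimated depth it reached 1.54 FPKM for GAGE, 1.57 for XAGE and 1.39 for PAGE genes, many of which are short. With TET1 it was at or above 1 FPKM for 25 of the 119 members in HeyC2 and 27 of the 114 in SKOV3, and could not be set for 12 in each line, so for these a level of 1 FPKM could have been missed. It was below 1 FPKM for the other 82 and 75.

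**Figure D2:**
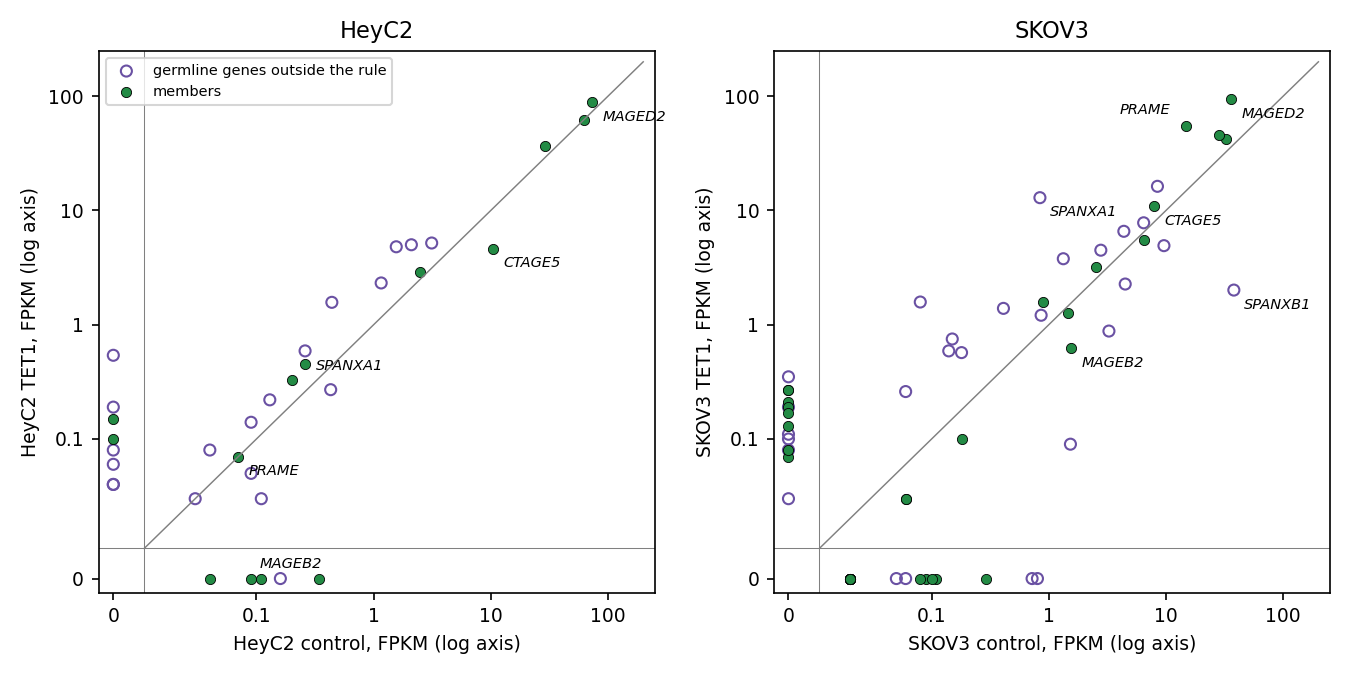
FPKM with TET1 (y axis) against control (x axis), both log axes with 0 drawn beyond the thin lines, for members (green) and germline genes outside the rule (open purple) that were above 0 in at least 1 of the line's libraries. The diagonal is equality. The green points above 0 with TET1 and at 0 in the control reach 0.15 in HeyC2 and 0.27 in SKOV3, and PRAME lies above the diagonal in SKOV3 only.

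PRAME had the highest level in SKOV3, in either library, among the 110 members in the narrow sense. It lies on chromosome 22 (GRCh37, 22890123 to 22901768, minus strand), and its protein is a substrate receptor of CUL2 ubiquitin ligases and is known as a repressor of retinoic acid receptor signalling. PRAME was 0.07 FPKM in both HeyC2 libraries, and in SKOV3 it was 14.79 in the control and 54.80 with TET1. These values correspond to an estimated 1.1, 1.0, 220.9 and 781.2 fragments, so PRAME was near the detection limit in both HeyC2 libraries and well above it in both SKOV3 libraries. The 95% exact Poisson intervals, which cover counting error only, were 193 to 252 fragments in the control and 727 to 838 with TET1 in SKOV3, and did not overlap. Between the controls, PRAME was 233 times as high in SKOV3 (95% exact counting interval 41.3 to 9225), a ratio that rests on 1 fragment in HeyC2. PRAME was thus already transcribed in the SKOV3 control.

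With TET1, PRAME was 3.71 times its control level in SKOV3, or 1.82 on the scale of log2(FPKM + 1). Every log2 ratio of this text is given on that scale unless another is named. Of 13016 genes tested in SKOV3, 454 had a higher log2 ratio. In HeyC2 the log2 ratio was 0.00. Without PRAME, the summed level of the other members in the narrow sense in SKOV3 was 2.52 FPKM in the control and 1.9 with TET1. The epithelial keratin KRT19 went from 255.14 to 0.46 FPKM and KRT7 from 1537.2 to 21.96 between the same SKOV3 libraries, whereas ERBB2 was 1281.74 and 1463.94. The part of such differences between the libraries in the PRAME result was not tested.

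MAGEB2 was the 1 type I MAGE gene to reach 1 FPKM. It lies on the X chromosome (30233680 to 30238206, plus strand) and encodes a testis RNA-binding MAGE protein. MAGEB2 was 0.09, 0, 1.56 and 0.62 FPKM. The SKOV3 values rest on an estimated 15.7 and 5.9 fragments, with intervals of 9.15 to 26.0 and 2.202 to 13.1 that overlap. The log2 ratio in SKOV3 was −0.66, past the 1.5-fold limit on the lower side, on few fragments. Overlap of separate intervals does not decide whether the counts differ, and no interval was made for this ratio. The level in the SKOV3 control was 16.9 times that in the HeyC2 control (interval 2.63 to 710, on 16 fragments and 1). MAGEB2 was thus low in SKOV3 and near the detection limit in HeyC2.

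**Figure D3:**
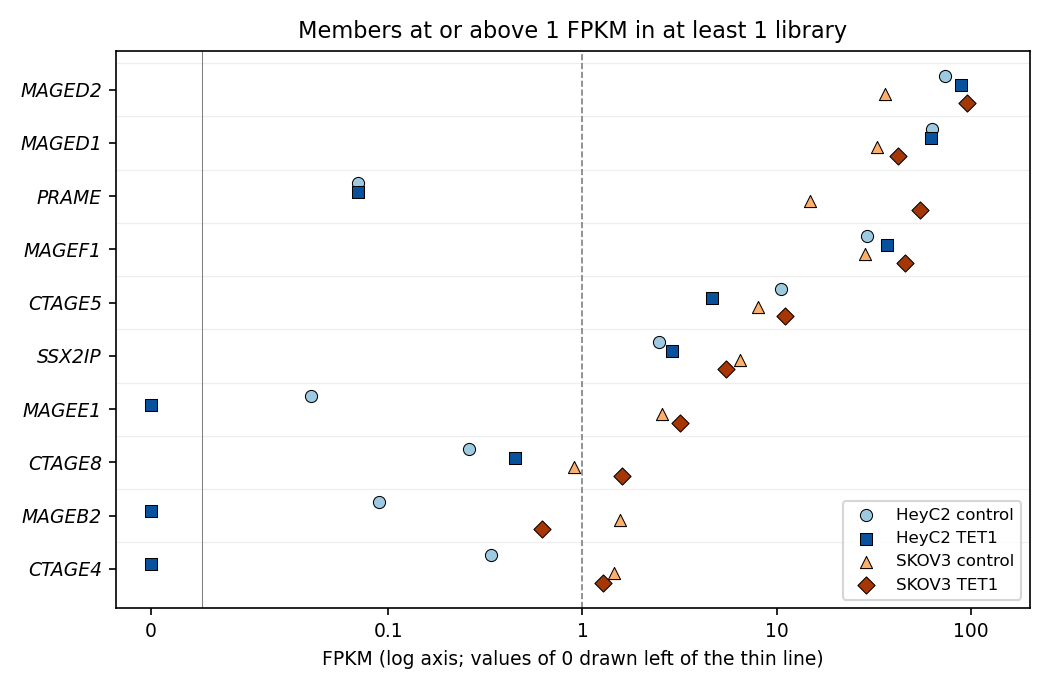
FPKM (x axis, log, with 0 drawn left of the thin line) of the 10 members that reached 1 FPKM (dashed line) in at least 1 library, with 1 marker per library. PRAME and MAGEE1 lie at or below 0.07 in HeyC2 and above 2.5 in SKOV3, and MAGED1, MAGED2, MAGEF1, CTAGE5 and SSX2IP lie above 1 in all 4 libraries.

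Of the type II genes, MAGED1, MAGED2 and MAGEF1 were transcribed in both lines. MAGED1 (X chromosome, 51546103 to 51645450), a partner of the neurotrophin receptor p75, was 62.95, 61.86, 32.70 and 41.90 FPKM. Its log2 ratios with TET1 were −0.02 in HeyC2 and 0.35 in SKOV3, short of 1.5-fold in both. MAGED2 (X chromosome, 54834032 to 54842448), a gene needed for kidney salt transport before birth, was 73.67, 88.83, 35.95 and 94.64 FPKM. SKOV3 TET1 was the highest and the SKOV3 control the lowest of these 4 libraries, a ratio of 2.63 and a log2 ratio of 1.37 in SKOV3 against 0.27 in HeyC2. The SKOV3 estimates were 473 and 1186 fragments, with intervals of 431 to 518 and 1118 to 1254.

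MAGEF1 (chromosome 3, 184428152 to 184429852), a single-exon gene whose protein joins the ligase NSMCE1, was 29.26, 36.96, 28.34 and 45.39 FPKM. The controls were alike, with a log2 ratio of HeyC2 over SKOV3 of 0.04. With TET1 the log2 ratio was 0.66 in SKOV3, past 1.5-fold, and 0.33 in HeyC2. The SKOV3 call was lost when the median of all genes was set to 0, at 0.47. MAGEE1 (X chromosome, 75648103 to 75651735), a MAGE protein of the dystrophin complex, was 0.04, 0, 2.55 and 3.19 FPKM, so it was above 1 FPKM in SKOV3 only. Its level in the SKOV3 control was 64.9 times that in the HeyC2 control (interval 11.2 to 2606, on 62 fragments and 1). MAGED4 and MAGED4B, which share 99.0% and 100% of their stretches, were 0.06 each in the control and 0.03 each with TET1 in SKOV3, and 0 in HeyC2.

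The CTAGE genes and SSX2IP entered by name. CTAGE5, now a part of MIA2 (chromosome 14, 39699435 to 39857717), helps large cargo such as collagen leave the endoplasmic reticulum. It was 10.49, 4.63, 7.96 and 10.98 FPKM. The HeyC2 ratio was 0.441 (log2 ratio −1.03), on 361 and 145 fragments, and the SKOV3 ratio was 1.38 (log2 ratio 0.42). The HeyC2 direction turned on the values as deposited, where the log2 ratio was 0.48. MIA2 is also listed under its own symbol, which the rule does not cover, and how reads were divided between these entries is not known. The CTAGE5 fragment numbers rest on the length of a MIA2 transcript, 4869 bases. CTAGE4 and CTAGE8, intronless copies on chromosome 7, were 0.34, 0, 1.45 and 1.27 FPKM and 0.26, 0.45, 0.90 and 1.59 FPKM, and since they share 95.2% and 98.0% of their stretches their separate values are uncertain. SSX2IP (chromosome 1, 85109389 to 85156486), a centrosome and cell junction protein, was 2.48, 2.88, 6.48 and 5.46 FPKM, with log2 ratios of 0.16 and −0.21.

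Of the members, 5 passed the filter of a mean of 1 FPKM in HeyC2 and 10 in SKOV3. A member silent in its control could pass only by rising, so these are not a sample of all members. In HeyC2, 0 members were at least 1.5-fold higher and 1 (CTAGE5) was lower, beside 14.6% and 7.41% of the 11896 genes tested. In SKOV3, 3 (PRAME, MAGED2 and MAGEF1) were higher and 1 (MAGEB2) lower, beside 28.6% and 11.5% of 13016. The median log2 ratio over all genes tested was 0.06 in HeyC2 and 0.19 in SKOV3, and over the members that passed it was 0.16 and 0.38. On the values as deposited, 4 members were higher and 0 lower in HeyC2, beside 95.8% and 0.5% of all genes, and 6 were higher and 0 lower in SKOV3, beside 50.2% and 4.39%. In SKOV3 the share of members called higher (3 of 10, or 6 of 10 as deposited) was thus near that of all genes.

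The control libraries of the lines were set side by side. At or above 1 FPKM in the SKOV3 control and below 0.1 in the HeyC2 control stood 3 members (PRAME, MAGEB2 and MAGEE1), beside 704 of 26506 symbols (2.66%), and 0 members showed the reverse, beside 301 (1.14%). The log2 ratios of HeyC2 over SKOV3 control were −3.88 for PRAME, −1.77 for MAGEE1 and −1.23 for MAGEB2, against 0.92 for MAGED1 and 1.01 for MAGED2. The median over all genes was −0.27. The tables of the lines are separate files, and each line has 1 control library.

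Genes around PRAME on chromosome 22 were described to place its level in its region. Within 1000 kb of the PRAME start lay 26 other symbols, of which 13 passed the filter in SKOV3. Their median log2 ratio in SKOV3 was 0.39, beside 0.19 over all genes, and their range ran from −0.16 to 1.73 (YPEL1). Of the 13, 5 were higher and 0 lower, beside 28.6% and 11.5% of all genes. ZNF280B, a zinc finger gene whose start lies 38.7 kb away, was 0, 0, 2.55 and 4.44 FPKM. GNAZ, a G protein subunit gene 510.9 kb on the other side, was 0.04, 0.24, 6.54 and 16.8, and the SKOV3 filter could admit such genes but not their reverse. Over all 26 neighbours without a filter, these 2 were at or above 1 FPKM in the SKOV3 control and below 0.1 in that of HeyC2, and 0 were the reverse. Of all symbols, 2.66% and 1.14% were so, and counts this small cannot be told apart from those shares. BCR, further out, was 9.72, 10.66, 18.91 and 27.3. Around MAGED2, 9 of 21 symbols were tested, with a median of 0.18, near that of all genes, and 2 were higher (RRAGB at 1.26 and FAM120C at 0.97) and 0 lower, against the same shares.

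**Figure D4:**
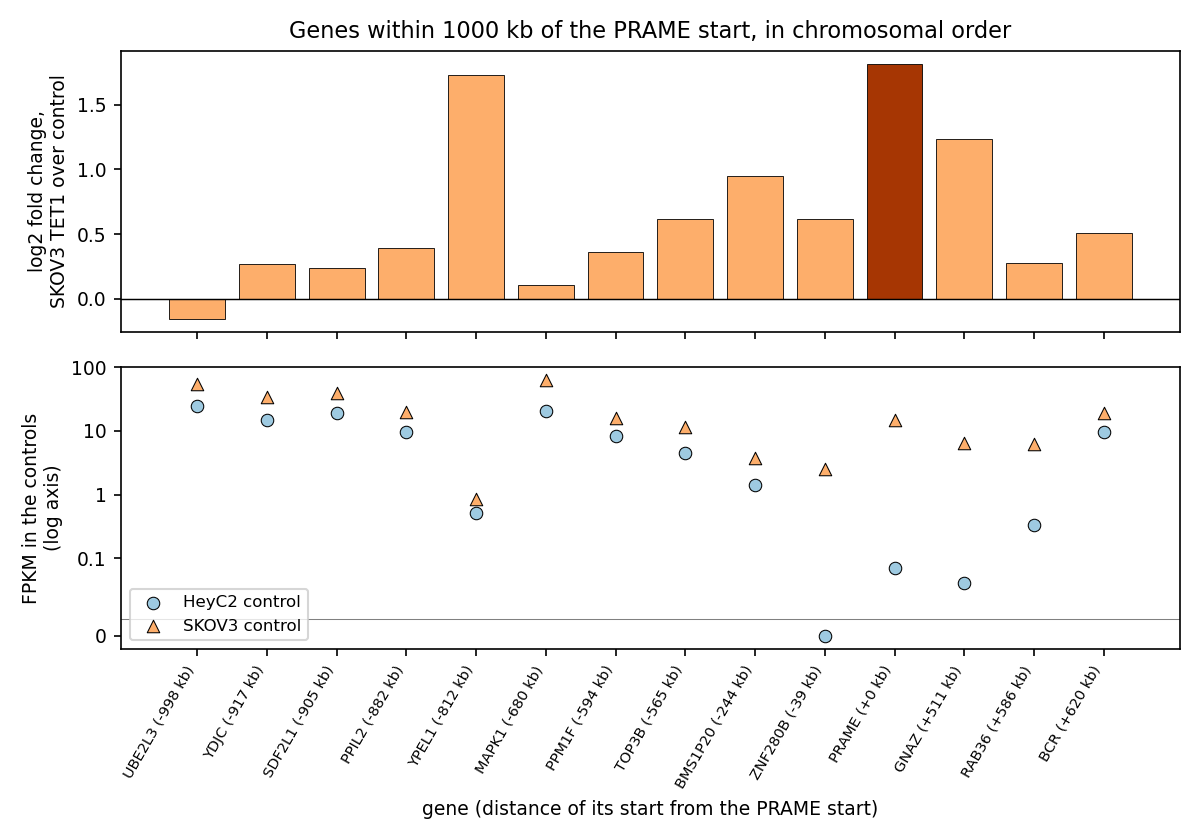
Genes within 1000 kb of the PRAME start that passed the filter in SKOV3, in chromosomal order (x axis, with the distance of each start from that of PRAME). The upper panel shows the log2 fold change in SKOV3 (y axis; PRAME dark) and the lower panel FPKM in the controls (y axis, log, 0 below the thin line). The PRAME bar stands at 1.82 and those of the other 13 genes between −0.16 and 1.73. Genes silent in SKOV3 are not drawn, so the lower panel could not show a gene found in HeyC2 alone.

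Promoter windows of 300 bases (250 before and 50 after the start) were at hand for 75 members, as 100 windows. The median number of CpGs was 13 (quartiles 10 to 17), beside 14 (4 to 28) over 35116 windows of 27305 genes, so the middle 50% of the member windows spanned a narrower range. Single windows went as low as 1 CpG (DDX4) and as high as 33 (DAZL). The 13 windows of members that reached 1 FPKM and the 87 of members that did not had the same median, 13. SSX2IP had 32 CpGs, MAGEB2 and MAGEF1 21, the silent DAZL 33 and 29 in its 2 windows, and PRAME 13, 12 and 4 in its 3.

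**Figure D5:**
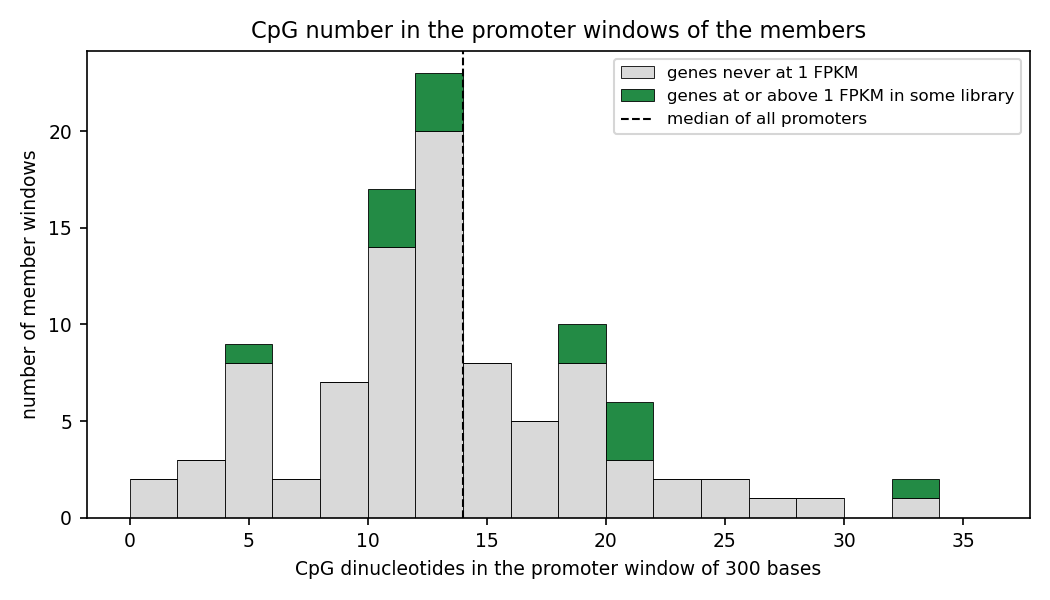
Number of member windows (y axis) by the number of CpG dinucleotides in 300 bases around the start (x axis), split into genes that reached 1 FPKM in some library (green) and genes that did not (grey). The dashed line is the median of all promoters, 14, and green and grey overlap over most of the range.

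Motifs were searched as fixed letters on both strands, and CpG dinucleotides occur within both. CGGAAG, the core bound by ETS factors, was in 5 of 13 windows of members that reached 1 FPKM (38.5%), 12 of 87 of the others (13.8%) and 19.5% of all windows. Those 13 windows came from 9 genes and the 87 from 66, so they are not independent. The printed stretches of PRAME and MAGEB2 each hold 1 match. CACGTG, the E-box bound by MGA and MAX, was in 29 of 100 member windows (29.0%) and 7.26% of all. It was in all 13 GAGE windows and 5 of 6 CTAGE windows, which are mostly from similar copies within each family and not independent. Of 7 PAGE windows 5 held it, both windows of PAGE4 among them, and PAGE transcripts shared at most 15.6% of their stretches. BRDT holds 1 CACGTG in the printed stretch. A match is a description of the letters, and binding was not measured.

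Germline genes outside the rule were mostly silent too. Of 63 measured, 49, 44, 41 and 39 were listed at 0 in the 4 libraries, beside 42.8%, 41.2%, 39.1% and 36.1% of all symbols, and 4, 5, 10 and 12 reached 1 FPKM. In HeyC2, 5 were tested, of which 4 were higher (SPA17, CABYR, REC8 and TSSK6) and 0 lower, beside 14.6% and 7.41% of all genes. In SKOV3, 11 were tested, of which 3 were higher (SPANXA1, SPA17 and TSSK6) and 4 lower (SPANXB1, SPANXD, SYCE2 and ZNF165), beside 28.6% and 11.5%. A gene silent in its control could pass the filter only by rising. SPA17, a sperm surface and cilium protein, was 2.10, 5.01, 8.46 and 16.27 FPKM, higher with TET1 in both lines. CABYR, a calcium-binding protein of the sperm tail, was 1.56, 4.81, 6.45 and 7.80. SPA17 and CABYR were above 1 FPKM already in the controls, whereas REC8 was 0.44 in the HeyC2 control and SPANXA1 0.84 in the SKOV3 control.

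The SPANX genes are X-linked and encode sperm nuclear antigens. SPANXB1 was 0, 0, 37.97 and 2.01 FPKM, with a log2 ratio of −3.69 in SKOV3, whereas SPANXA1 was 0.26, 0.59, 0.84 and 12.94, with 2.92. The 11 SPANX symbols summed in SKOV3 to 46.92 FPKM in the control and 34.65 with TET1, and since these copies are nearly alike the division of reads between them is uncertain. SYCP2, a synaptonemal complex protein, was 0.13, 0.22, 4.37 and 6.57, and RNF17, of the piRNA pathway, was 3.13, 5.19, 0.06 and 0, which is the opposite order of the lines. ACRBP, an acrosome protein, was the 1 gene of this list switched on in SKOV3, from 0.08 to 1.58 FPKM. Among all symbols below 0.1 in the SKOV3 control, 199 of 11219 (1.77%) were switched on. With 41 of the 63 genes of this list at 0 in that control, 1 gene lies near that share. REC8, TSSK6, ZNF165, SPANXD and ACRBP were named after their values were seen.

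Partners of MAGE and PRAME proteins were mostly transcribed in both lines. The list also holds MAGE family genes outside the rule, such as NDN and MAGEL2, which were 0 in all 4 libraries, and MAGEH1, at 0, 0, 3.01 and 3.55 FPKM. TRIM28, the ligase partner of MAGEA3, was 116.24, 106.86, 249.76 and 213.66 FPKM. TCEB2 (elongin B), part of the CUL2 ligase of PRAME, was 166.70, 127.67, 266.48 and 246.39. Of 22 genes of this list measured, 16 were tested in HeyC2 with 2 higher (SMC5 and SMC6) and 0 lower. In SKOV3, 17 were tested with 2 higher (RARA and PJA1) and 1 lower (TCEB1). None of these counts lay above the share of all genes (14.6% and 7.41% in HeyC2, 28.6% and 11.5% in SKOV3). RARA, the retinoic acid receptor that PRAME binds, was 11.68, 10.08, 10.44 and 31.59, so it was higher in SKOV3 TET1, where PRAME was also highest.

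Repressors of germline genes, the DNA methyltransferases and the E2F6 and PCGF6 complexes among them, were all at or above 1 FPKM in all libraries (22 of 22). In HeyC2, 1 was higher (HELLS) and 1 lower (DNMT3B), beside 14.6% and 7.41% of all genes. In SKOV3, 6 were higher and 3 lower, near the shares of all genes (28.6% and 11.5%). DNMT3B, a de novo methyltransferase, was 5.52, 2.74, 8.59 and 49.45 FPKM, and DNMT1, which copies methylation after replication, was 24.51, 20.61, 81.53 and 39.17. UHRF1, which brings DNMT1 to replicated DNA, was 11.94, 14.42, 42.14 and 15.63. The de novo and maintenance enzymes thus differed in direction in SKOV3, with log2 ratios of 2.40 for DNMT3B, −1.04 for DNMT1 and −1.38 for UHRF1, in the library pair in which PRAME was higher, and their part in that difference was not tested.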

How the data were processed

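RNA-seq of HeyC2 and SKOV3 was used, 1 library per condition and 4 in all. The deposited values are FPKM, obtained by the authors with TruSeq libraries (2 × 150 bases), alignment to hg19 in Bowtie2 2.2.6 and RSEM 1.2.17. The annotation is not given in the sources used here. The constant in each TET1 library was recovered from the value steps (99.9% and 99.8% of distinct values below 40 FPKM on the grid) and divided out. Log2 ratios had 1 added to each FPKM, were counted for genes averaging 1 FPKM or more in the line, and were called past 1.5-fold. Depth was estimated from FPKM steps of genes with 1 transcript, of which 50.6% to 62.8% of values came out whole (within 0.1), so fragment numbers are approximate. Intervals are exact at 95% and cover counting error only. Coordinates came from GENCODE 44 lifted to GRCh37, with 117 of 128 members matched. The plan for naming covered members at 1 FPKM in any library and members below 0.1 in a control that reached 0.5 with TET1 (0). It also covered the 7 genes the rule names and up to 8 genes of each other list. Further genes were named outside that plan. Among them are trace members, genes named because they passed the 1.5-fold limit, and NDN, MAGEL2 and MAGEH1. The members and lists were chosen with earlier results of these data known. The scripts were tested on simulated data. Python 3.11.15, numpy 2.4.6, pandas 2.3.3, scipy 1.17.1 and matplotlib 3.10.9 were used.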

Additional observations from a re-analysis of the deposited data

Results flagged for a closer look

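CTAGE5 differed in direction between the lines: the log2 ratio of TET1 over control was −1.03 in HeyC2 and 0.42 in SKOV3. With 1 library per condition the difference was not tested, and the HeyC2 value was 0.48 as deposited. MIA2, of which CTAGE5 is a part, has its own entry that is not described here.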

How the results depend on the processing

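No paired analysis was possible because each condition has 1 library. No member was switched on under any alternative tried (values as deposited, TPM, expressed from 0.5 or 2 FPKM, silent only at 0, the narrow members). On the values as deposited, 4 members were higher and 0 lower in HeyC2, and 6 higher and 0 lower in SKOV3. CTAGE5 in HeyC2 turned to 0.48 there. These shifts follow from the constant itself. With a mean of at least 5 FPKM, or a 2-fold limit, 0 members were lower in SKOV3, since MAGEB2 no longer passed. Without the MAGED, MAGEE, MAGEF and CTAGE genes and SSX2IP, 0 members were lower in HeyC2 and 1 was higher in SKOV3, and the members at 1 FPKM numbered 0 and 0 in the HeyC2 libraries and, in SKOV3, 2 in the control and 1 with TET1. Of the other 62 counts, all stayed within 1.5 times. Of values of named genes, 120 were labelled as within the limit set, 19 as moved and 1 (CTAGE5) as turned. These labels miss some changes of sign and size. As deposited, MAGED1 in HeyC2 went from −0.02 to 1.65. SSX2IP in SKOV3 went from −0.21 to 0.16, and CTAGE4 in SKOV3 from −0.11 to 0.15. With 0.1 added in place of 1, PRAME in HeyC2 over SKOV3 control went from −3.88 to −6.45, within the limit. Depth limits the silent calls by transcript length: 3 fragments were worth up to 1.57 FPKM for XAGE and 0.441 for MAGEB genes.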

Other observations

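CDH5, an endothelial cadherin, was 18.85 FPKM in the HeyC2 control and 94.63 in HeyC2 TET1, and 0.11 and 0.19 in SKOV3, while the endothelial marker PECAM1 was at most 0.09 in every library. The pluripotency factor POU5F1 was 0, 0.47, 2.24 and 4.30 FPKM in HeyC2 control, HeyC2 TET1, SKOV3 control and SKOV3 TET1, and the germ cell receptor KIT was 0, 0, 1.35 and 2.55, whereas the germ cell gene LIN28A was at most 0.04. NANOG was 0.14, 0.09, 0.11 and 0, NANOS3 0.40, 0.89, 0 and 0.45, and DPPA3 0, 0.33, 0 and 0. Of these 6 germ cell markers, 0, 0, 2 and 2 reached 1 FPKM. The markers summed to 0.54, 1.82, 3.74 and 7.34 FPKM, and the SKOV3 sums were mostly POU5F1 and KIT.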
